A study of Mus musculus with 6 samples.

Results

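The 92 potassium channel genes were examined, of 20807 protein-coding genes on chromosomes 1 to 19 in GENCODE M21. They were all the genes there whose symbol starts with *Kcn*. Accessible chromatin was profiled by ATAC-seq, in which a transposase inserts adapters into open DNA, in neural stem cell (NSC) cultures from the subependymal zone of adult C57BL/6J mice, labelled as 10 weeks old. Every culture carried the *Srr2* deletion, a CRISPR-Cas9 mutation of an enhancer of *Sox2* that is present in all cells of the animal, so both groups share it. The allele was kept as 2 strains from 2 founders, and the labels do not say which strain gave a library. Wild-type cultures were not analysed here. The 3 proliferating libraries (PROLIF 1, 2 and 4) came from cells kept for 2 days in vitro with FGF. The 3 early differentiating libraries (DIFF 1, 2 and 4) came from cells kept 1 day longer without mitogens and with 2% fetal bovine serum, so removal of mitogens and addition of serum cannot be told apart. Nothing in the labels says whether libraries came from separate animals, and p-values measure only the spread between these libraries.

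Potassium channels let potassium ions cross the membrane and hold its resting voltage. Voltage-gated (Kv) pore subunits open on depolarisation, silent Kv subunits open only together with a Kv2 pore, and EAG and KCNQ channels carry slow or resurgent currents that limit firing. Inward rectifiers keep cells near the potassium equilibrium, and in glia *Kcnj10* carries much of the uptake of extracellular potassium. Two-pore channels leak at rest, calcium- and sodium-activated channels follow the ions in their name, and accessory subunits change how pores gate or travel. Neural stem cells share many membrane properties with astrocytes, whereas most Kv channels are better known from neurons.

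The measurement was a list of peaks for each library, called by the authors, so a missing peak means a signal under the caller's threshold. Each peak was given its percentile in its own list, ranked by −log10 p, from 0 for the weakest to 100 for the strongest. A promoter peak overlapped the 3 kb either side of an annotated start site. A window was the gene body plus 20 kb on both sides (GRCm38), and its other peaks were called promoter peaks of another gene, exonic, intronic or distal, where distal covers everything left, including the bodies of neighbouring genes. The lists held 58188 to 85593 peaks on chromosomes 1 to 19. The background pileup, which follows depth, was 2.85 to 2.97 reads in PROLIF and 3.63, 2.96 and 6.01 reads in DIFF 1, 2 and 4. All 8 markers of neural stem and progenitor cells had a promoter peak in every library. Of the markers of other cells, 3 of 5 for neurons, 1 of 4 for mature oligodendrocytes, 2 of 5 for microglia and 1 of 4 for endothelium had one in every library. Some markers moved with state. The endothelial *Pecam1* had one in PROLIF (51.7, 44.1 and 55.1) and in no DIFF library. The microglial *P2ry12* had 69.8 to 78.1 in PROLIF and 56.7 to 57.5 in DIFF. The microglial *Csf1r* and the endothelial *Kdr* overlapped between the states. The stem cell marker *Nes* was higher in every PROLIF library (72.9 to 86.6 against 53.9 to 66.9). The neuronal *Tubb3* (42.2 to 60.1 against 62.7 to 75.6) and *Snap25* (83.5 to 85.8 against 88.0 to 93.4) were higher in every DIFF library. The part of such shifts in cell type in the results was not tested.

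Most *Kcn* promoters were open in both states. A promoter peak was present in all 6 libraries for 64 of 92 genes (69.6%), in some libraries for 17 (18.5%) and in none for 11. Over all protein-coding genes 65.7% had one in all, 10.4% in some and 24.0% in none. Among other ion channel families, 22 of 25 *Cacn* calcium channel genes and 7 of 14 *Scn* sodium channel genes had a promoter peak in all 6 libraries. The constant *Kcn* promoter peaks were weaker than those of genes in general, with a median percentile of 74.6 beside 86.4. These shares describe the lists and were not tested against each other.

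The PROLIF libraries held a promoter peak for 78, 68 and 69 of the genes, and the DIFF libraries for 72, 72 and 78. The states overlapped, at 77.9% ± 5.99 (SD, n = 3) of the genes for PROLIF and 80.4% ± 3.77 (SD, n = 3) for DIFF (two-sided exact permutation test, p = 0.6, where 3 against 3 libraries cannot give less than 0.1). The median percentile of the promoter peaks was 74.7, 74.9 and 66.7 in PROLIF and 72.9, 71.7 and 75.6 in DIFF (exact permutation p = 0.8). The lowest of these values was that of PROLIF 4, which also had the shortest list. Since cultures were profiled in bulk, open chromatin in fewer cells and less open chromatin per cell cannot be told apart.

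**Figure D1:**
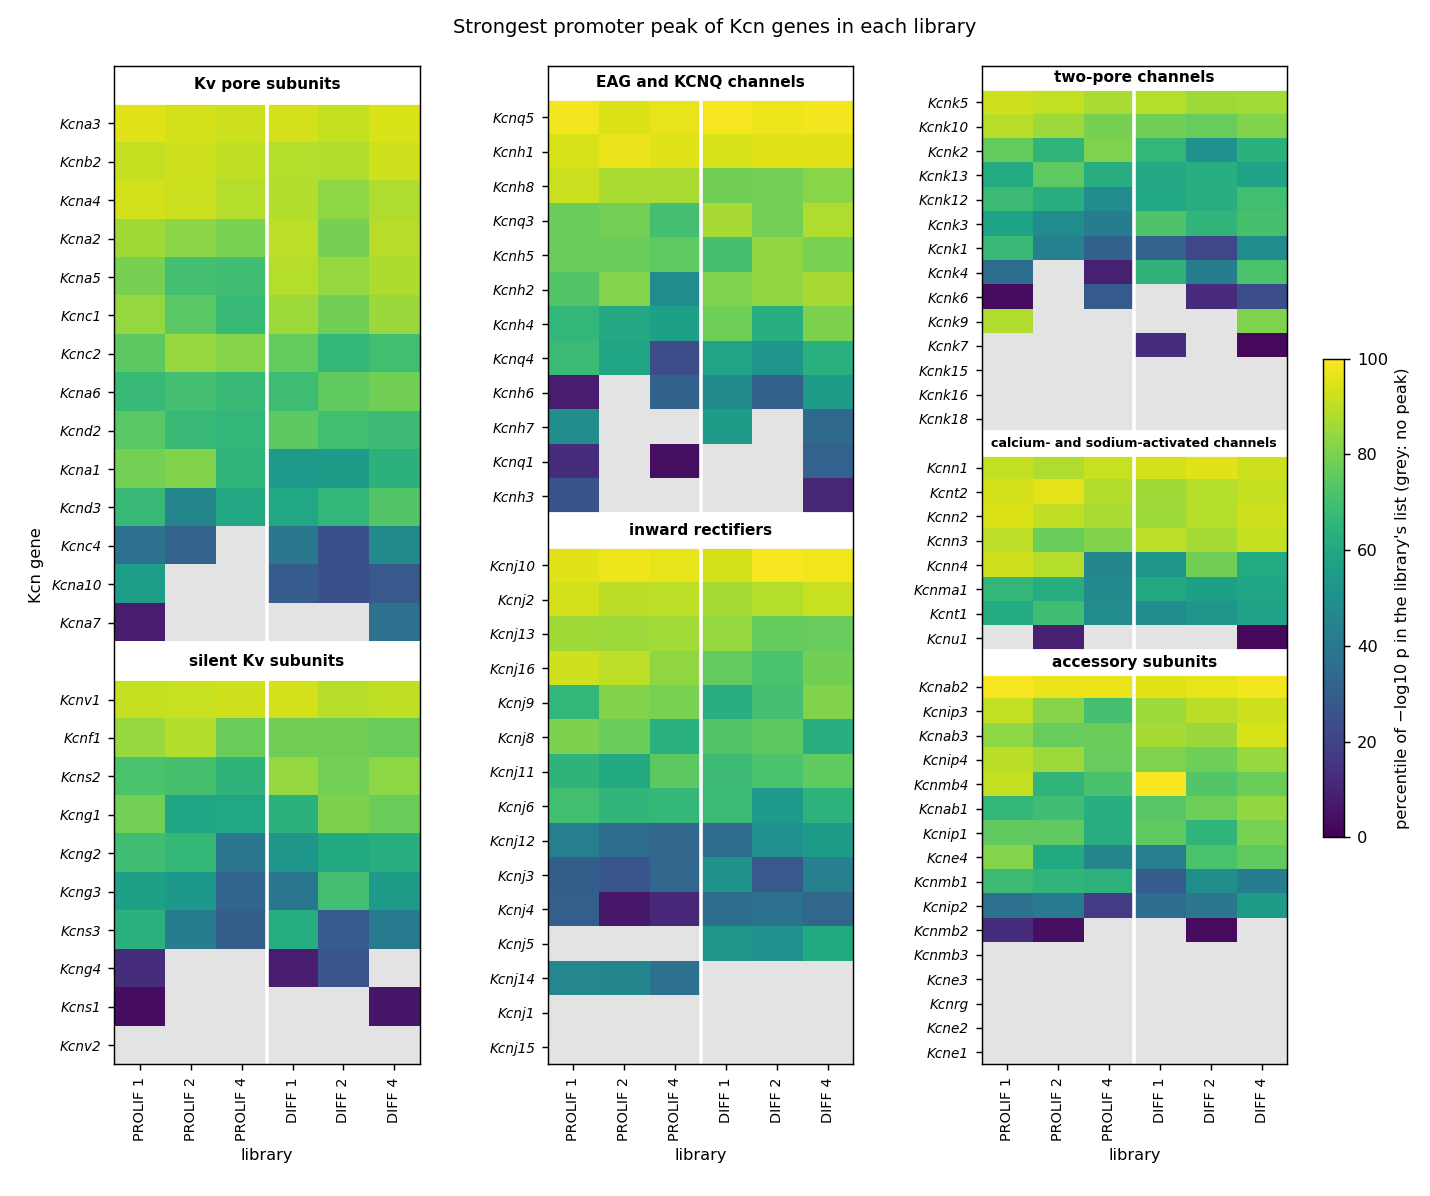
Percentile of the strongest promoter peak (colour) of Kcn genes (rows, grouped by subfamily) in each library (columns); grey cells hold no promoter peak. Grey cells gather in a few genes of the two-pore, inward rectifier and accessory groups, and Kcnj5 and Kcnj14 split by state.

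Of the 16 Kv pore subunits, 13 had a promoter peak throughout and 3 in some libraries. *Kcna3*, whose channel sets the resting voltage of many cycling cells, had percentiles of 95.6, 93.5 and 92.6 in PROLIF and 93.4, 91.4 and 94.3 in DIFF. *Kcnd2*, an A-type channel, stayed between 66.2 and 74.9 in all libraries. In both genes the states overlapped. The *Kcna* genes lie in clusters and did not move together. *Kcna1* stood at 79.1, 81.2 and 65.7 in PROLIF and at 54.0, 55.1 and 64.2 in DIFF, with every PROLIF library above every DIFF library, PROLIF 4 and DIFF 4 lying closest. Its neighbour *Kcna5* went the other way, with 79.4, 70.2 and 69.4 in PROLIF and 89.0, 84.0 and 87.6 in DIFF, and *Kcna6* overlapped between states. *Kcna2*, the axonal channel of myelinated fibres, was at 80.0 to 85.6 in PROLIF and 79.6 to 90.1 in DIFF. *Kcnc2*, found in fast-spiking interneurons, had 74.8, 84.5 and 81.9 in PROLIF and 76.4, 66.8 and 69.6 in DIFF, and the states overlapped. The genes with a peak in some libraries were *Kcna7* with 2, *Kcna10* with 4 and *Kcnc4* with 5.

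Of the 10 silent Kv subunits, 7 had a constant promoter peak, led by *Kcnv1* at 89.3 to 93.7 over the 6 libraries, and *Kcnv2*, a photoreceptor subunit, had none. Among 13 EAG and KCNQ genes 9 were constant. *Kcnq5*, an M-current subunit, had the highest mean percentile of any *Kcn* promoter with 94.8 to 98.7 over the libraries, and *Kcnh1* was next in this subfamily with 94.0 to 97.1. *Kcnq3* stood at 77.2, 79.0 and 70.1 in PROLIF and 87.1, 79.1 and 88.1 in DIFF. The lowest DIFF value of *Kcnq3* lay only just above its highest PROLIF value. *Kcnh8* fell from 91.9, 87.4 and 87.4 in PROLIF to 78.7, 78.9 and 82.1 in DIFF, a change that passed the test given below.

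Among the inward rectifiers 11 of 15 were constant. *Kcnj10* (Kir4.1) had 95.5, 97.6 and 96.3 in PROLIF and 93.6, 98.7 and 98.0 in DIFF, which did not separate the states. Its heteromeric partner *Kcnj16* (Kir5.1) had 92.8, 89.9 and 83.5 in PROLIF against 76.1, 71.8 and 78.8 in DIFF, so every PROLIF library was higher. *Kcnj13* also was higher in every PROLIF library, at 85.2 to 86.3 against 76.5 to 84.0, and *Kcnj4* in every DIFF library, at 33.1 to 37.7 against 6.41 to 30.1. Promoters present in one state only occurred once in each direction, both in this group. *Kcnj14* had a promoter peak in PROLIF at 46.2, 45.9 and 37.5 and in no DIFF library, at a region that also lies in the body of *Grwd1*. *Kcnj5*, a G protein-gated channel subunit, had one in DIFF at 52.7, 50.7 and 60.5 and in no PROLIF library. Over all genes, a promoter peak in every PROLIF and no DIFF library occurred in 0.231% of genes, and the reverse in 0.384%, beside 1 of 92 *Kcn* genes in each direction. *Kcnj1* and *Kcnj15* had no promoter peak, and *Kcnj15* was the only *Kcn* gene with no peak anywhere in its window.

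Two-pore channels had the lowest share of constant promoters, 7 of 14, and 3 of them (*Kcnk15*, *Kcnk16* and *Kcnk18*) had none. *Kcnk5*, an acid-sensitive leak channel, was highest at 85.7 to 93.0. *Kcnk2* (TREK-1) had 76.5, 65.5 and 80.8 in PROLIF and 66.0, 50.5 and 64.2 in DIFF, and *Kcnk1* (TWIK-1), a leak channel of astrocytes, had 67.8, 44.1 and 31.0 against 31.7, 21.8 and 48.7. Both overlapped between the states, the second widely. *Kcnk3* (TASK-1) rose from 58.1, 48.4 and 42.4 to 72.3, 65.8 and 71.1. *Kcnk9* shows the edge of the promoter rule: a region present in all 6 libraries at 74.3 to 88.0 had its summit 3214 bp from the start site, and its peak crossed the 3 kb line in 2 libraries only.

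Of 8 calcium- and sodium-activated channel genes 7 were constant. *Kcnn1*, a small-conductance channel, had 90.7, 88.0 and 91.5 in PROLIF and 93.3, 95.0 and 92.5 in DIFF, and *Kcnn2* had 94.7, 90.5 and 87.3 against 85.4, 88.7 and 92.8. *Kcnma1*, the large-conductance BK pore, was lower, at 66.1, 62.4 and 48.0 against 60.3, 57.0 and 58.8. Only *Kcnn1* separated the states among these 3. Of 16 accessory genes 10 were constant and 5 absent (*Kcne1*, *Kcne2*, *Kcne3*, *Kcnmb3* and *Kcnrg*). *Kcnab2*, a beta subunit that brings Kv1 channels to the axon, had 95.6 to 99.1 across the libraries. *Kcnip3*, a calcium sensor also known as DREAM, had 91.0, 81.8 and 70.5 in PROLIF and 85.4, 89.6 and 92.3 in DIFF, and *Kcnip1* had 75.4, 75.5 and 62.2 against 75.1, 65.6 and 79.9. The states overlapped in both. *Kcnmb1*, the BK beta subunit of smooth muscle, had 68.4, 65.6 and 64.5 in PROLIF and 29.3, 49.3 and 42.5 in DIFF, with no overlap, and its promoter lies inside the body of *Kcnip1*. *Kcnmb4*, the neuronal BK beta subunit, reached 90.6 in PROLIF 1 and 99.6 in DIFF 1 but 65.5, 71.3, 73.4 and 77.5 in the other libraries. The replicate 1 libraries of both states were high there in rank by −log10 p. The gene lies on chromosome 10, and its whole window held more peaks in replicate 1. It held 14, 2 and 2 peaks in PROLIF 1, 2 and 4 and 8, 3 and 5 in DIFF 1, 2 and 4. Fold enrichment over the local background was similar across libraries, at 6.36 in PROLIF 1, 7.33 in DIFF 1 and 6.30 to 7.15 in the others. DIFF exceeded PROLIF by 7.67 percentile points with all libraries (exact permutation p = 0.5) and by 7.05 without replicate 1 (exact permutation p = 0.333, the smallest that 2 against 2 allows), and the cause of the high replicate 1 values was not tested.

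Across the 64 constant promoters, the 6 libraries separated the states completely in 14. All 3 PROLIF libraries were higher in 6 (*Kcna1*, *Kcna4*, *Kcnh8*, *Kcnj13*, *Kcnj16* and *Kcnmb1*; 9.38%), where 4.68% of all constant promoters did the same. All 3 DIFF libraries were higher in 8 (*Kcna5*, *Kcnab1*, *Kcnab3*, *Kcnj4*, *Kcnk3*, *Kcnn1*, *Kcnq3* and *Kcns2*; 12.5%), against 26.6% of all. Percentiles are relative to the other peaks of a list, so these counts describe order and not amounts.

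Genes without a promoter peak had fewer CpG pairs at their 5′ end. The ratio of observed to expected CpG from 250 bp before to 50 bp after the end of the gene record had a median of 0.537 in the 64 constant genes, 0.510 in the 17 with a peak in some libraries and 0.237 in the 11 with none. Over all protein-coding genes the medians were 0.725, 0.278 and 0.151, so the order was shared and the constant *Kcn* promoters had less CpG than constant promoters in general. The range was wide: *Kcnmb1* at 0.0548 and *Kcna2* at 0.154 had a constant peak, and *Kcnk15* at 0.606 had none. The 250 bases before the RefSeq start (GRCm38.p6) of an inward rectifier with a constant peak, *Kcnj10*, of the constant EAG gene *Kcnh2* and of 2 inward rectifiers without one, *Kcnj1* and *Kcnj15*, are shown, with each CG pair in capitals. They were chosen as examples of both ends: among other genes without a promoter peak, *Kcnk18* had 5 CG pairs and *Kcne3* had 3 and 10 at its RefSeq starts.
Kcnj10, chr1:172340960-172341209, plus strand: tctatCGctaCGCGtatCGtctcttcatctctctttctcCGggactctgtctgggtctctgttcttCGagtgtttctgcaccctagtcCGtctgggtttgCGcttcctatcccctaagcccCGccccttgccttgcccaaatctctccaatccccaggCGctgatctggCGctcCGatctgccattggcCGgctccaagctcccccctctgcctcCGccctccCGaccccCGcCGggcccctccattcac
Kcnh2, chr5:24329592-24329841, minus strand: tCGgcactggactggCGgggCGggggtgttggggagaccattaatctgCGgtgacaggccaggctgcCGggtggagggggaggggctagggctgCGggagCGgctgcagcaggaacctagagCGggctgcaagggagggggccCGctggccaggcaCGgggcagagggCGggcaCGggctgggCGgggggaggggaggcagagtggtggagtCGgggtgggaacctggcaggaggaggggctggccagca
Kcnj1, chr9:32393735-32393984, plus strand: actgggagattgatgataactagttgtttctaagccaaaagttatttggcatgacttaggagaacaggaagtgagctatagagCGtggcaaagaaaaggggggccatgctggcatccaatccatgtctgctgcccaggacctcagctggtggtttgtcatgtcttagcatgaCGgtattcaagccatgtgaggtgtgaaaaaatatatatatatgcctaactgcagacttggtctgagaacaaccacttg
Kcnj15, chr16:95257308-95257557, plus strand: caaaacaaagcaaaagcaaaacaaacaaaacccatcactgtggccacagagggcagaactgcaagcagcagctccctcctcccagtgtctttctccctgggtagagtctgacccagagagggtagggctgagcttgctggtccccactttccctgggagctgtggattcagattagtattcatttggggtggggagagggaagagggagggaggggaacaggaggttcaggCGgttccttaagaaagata
They hold 17, 14, 2 and 1 CG pairs, where the median over 32851 RefSeq promoters was 6. The RefSeq starts of *Kcnh2* and *Kcnj1* lie inside the gene record, so these 2 sequences are not the 5′ ends behind the ratios. At those 5′ ends the ratios were 1.12 and 0.262. RefSeq promoters were found for 68 of the 92 genes, and the CpG ratios above were therefore taken from the genome sequence for every gene.

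**Figure D2:**
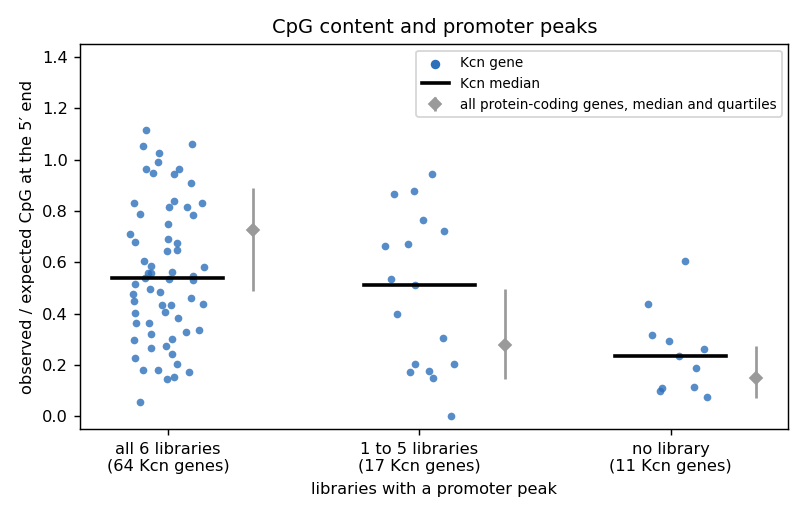
Observed to expected CpG at the 5′ end (y axis, no unit) of Kcn genes with a promoter peak in all 6, in 1 to 5 or in no library; black lines are Kcn medians, and grey diamonds with bars are medians and quartiles over all protein-coding genes. The Kcn medians are 0.537, 0.510 and 0.237, beside 0.725, 0.278 and 0.151 for all genes.

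Around the genes, the windows held 628, 514 and 434 peaks in PROLIF and 555, 527 and 667 in DIFF. As a share of each list this was 0.782%, 0.795% and 0.746% in PROLIF and 0.799%, 0.765% and 0.779% in DIFF and the states overlapped (0.774% ± 0.0253 and 0.781% ± 0.0169, SD, n = 3, exact permutation p = 0.7). The windows held 31.1 to 47.7 peaks per Mb, where the windows of all protein-coding genes held 32.3 to 46.7. Intronic peaks were the largest class, at 43.8% ± 3.24 of PROLIF and 44.8% ± 1.40 of DIFF window peaks (SD, n = 3, exact permutation p = 0.8). Distal peaks made up 21.4% ± 0.352 and 21.8% ± 0.492 (SD, n = 3, exact permutation p = 0.4), and own promoters 22.8% ± 1.84 and 22.5% ± 0.909 (SD, n = 3, exact permutation p = 0.8). Peak numbers followed the length of the list, the shortest being PROLIF 4 and the longest DIFF 4.

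By subfamily, peaks per ten-thousand of the list were 16.1 ± 1.02 in PROLIF and 16.9 ± 0.688 in DIFF for the Kv pore subunits and 15.6 ± 0.953 and 14.2 ± 0.807 for accessory subunits (SD, n = 3). EAG and KCNQ channels had 14.9, 12.5 and 13.1 in PROLIF and 15.8, 15.5 and 15.1 in DIFF, the only subfamily in which the states did not overlap (exact permutation p = 0.1, the smallest possible, before adjustment for 7 subfamilies). The other 6 subfamilies gave exact permutation p-values from 0.2 to 1.

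Peaks of the 6 lists that overlapped were merged into 951 regions, of which 297 (31.2%) had a peak in every library and 316 (33.2%) in 1 library only. Over all 116783 regions of chromosomes 1 to 19 the shares were 33.5% and 29.7%. By place, 83 of 170 own promoter regions (48.8%) and 38 of 68 promoter regions of another gene (55.9%) were constant, against 112 of 483 intronic (23.2%) and 58 of 208 distal regions (27.9%). The genes with the most constant regions outside promoters were *Kcnip1* with 12, *Kcnd3* with 11, *Kcnh8* and *Kcnq5* with 7, and *Kcnn3* and *Kcnq1* with 6, and 6 more genes had 5. In each of these 6 named genes most of the regions were intronic, and the genes span 155 kb (*Kcnn3*) to 564 kb (*Kcnq5*). *Kcnip4*, the longest *Kcn* gene at 1135 kb, had 40 regions but only 5 of them constant and outside promoters, and *Kcnt2* had 49 regions with 2 such. *Kcnj10*, a gene of 32.9 kb, had 7 constant regions of 9 in its window, among them 3 in the intron. Windows also take in neighbours: 51 of the 92 overlapped another protein-coding gene, 8 overlapped another *Kcn* window, and 13 regions lay in more than 1 *Kcn* window.

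**Figure D3:**
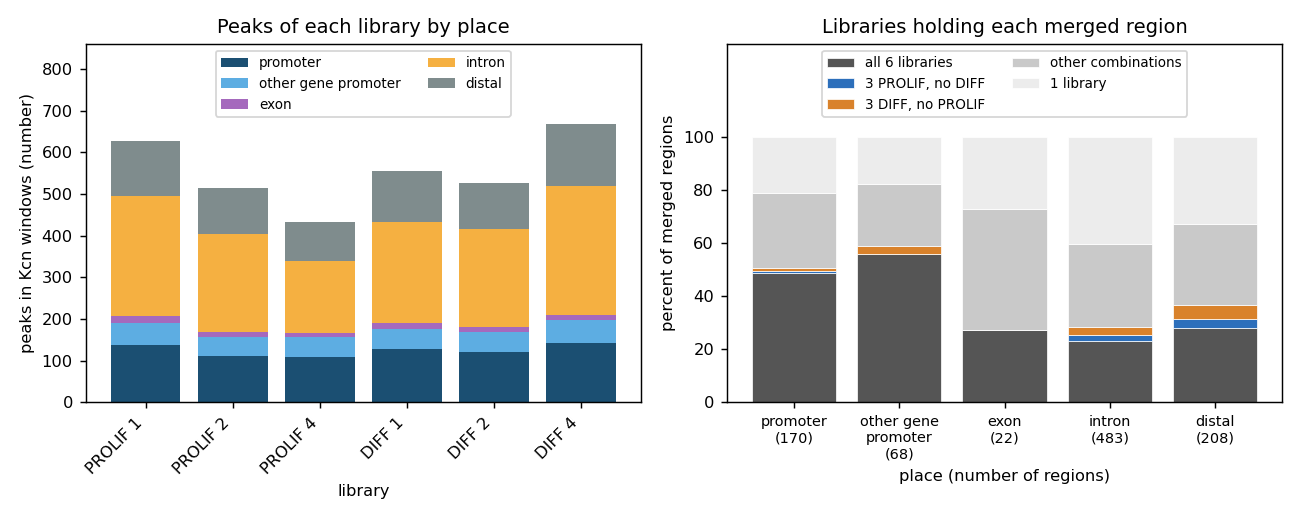
Left, number of peaks in Kcn windows in each library, coloured by place; right, percent of merged regions of each place with a peak in all 6 libraries, in the 3 libraries of 1 state only, in 1 library or in other combinations. Promoter regions were constant in 48.8% and intronic regions in 23.2%.

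Regions whose 3 peaks all came from 1 state numbered 19 for PROLIF (2.00% of the 951) and 29 for DIFF (3.05%), where 1.77% and 3.52% of all regions behaved so. Both shares lay near the background. Introns held 11 and 14 of them and distal sequence 7 and 11, and 1 PROLIF-only and 2 DIFF-only regions were own promoters. Among the PROLIF-only regions, ordered by their lowest percentile, a distal region of *Kcnip1* (chr11:34010504-34011124, which also lies in the body of 4930469K13Rik) led with 76.5, 67.9 and 67.6. An intron of *Kcnb2* (59.0, 62.2 and 55.1) was also high in the order, and further down it held the *Kcnj14* promoter, introns of *Kcnd3* and *Kcnma1* and distal regions of *Kcnk16* and *Kcne4*. *Kcnip1* held 4 of the 19 and *Kcnma1*, *Kcnd3* and *Kcnc2* held 2 each. Among the DIFF-only regions an intron of *Kcnn3* (chr3:89558856-89559780), an SK channel gene, led with 72.3, 67.8 and 81.2. The *Kcnj5* promoter came next, then a distal region of *Kcnc4* (45.8, 43.1 and 62.2) and introns of *Kcnq3* (37.7, 59.3 and 60.5), *Kcnn2*, *Kcnk2* (33.7, 51.6 and 58.1) and *Kcnq1*, with a distal region of *Kcnip2*. *Kcnab1* held 3 of the 29. Without DIFF 2 the DIFF-only count rose to 56, without PROLIF 1 to 47, and without PROLIF 4 the PROLIF-only count rose to 34. Leaving out a library removes a condition, so these counts could only stay or rise. The rises therefore do not show that the counts depend on that library.

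The strength of the 297 constant regions was compared by limma on rank scores, fitted over all 39088 constant regions of chromosomes 1 to 19, so that a difference is relative to the other regions. In *Kcn* windows 35 regions (11.8%) were higher in PROLIF and 22 (7.41%) higher in DIFF at an adjusted p under 0.05, in 37 genes. Over all constant regions 8.68% and 6.35% passed in these directions, so the *Kcn* shares lay a little above the background in both, with no test of that difference. The median score difference was 0.02 in *Kcn* windows and 0.05 over all regions. In each of the 57 regions, the percentiles of the states did not overlap. Limma selected them on these same ranks, so this adds no separate evidence. The same share over all called regions was not counted. The DIFF-higher count was 9, 7 and 8 without DIFF 1, 2 or 4 and 14 without PROLIF 4. The PROLIF-higher count stayed from 26 to 33 with a library left out. These fits had fewer libraries, and the shares over all constant regions in them were not counted. Whether the drop is particular to *Kcn* windows is therefore not known.

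By place, 18 of 112 intronic regions (16.1%), 10 of 58 distal regions (17.2%) and 6 of 83 own promoters (7.23%) fell in DIFF. Outside promoters of any gene 28 of 176 fell (15.9%), and at promoters 7 of 121 (5.79%). The same order was seen over all constant regions, with 2808 of 23418 outside promoters and 586 of 15670 at promoters (3.74%), so it is not particular to *Kcn* windows. The largest fall was in a region 7567 bp from *Kcnf1*, a silent Kv gene (chr12:17184243-17184878). It had percentiles of 91.3, 92.6 and 92.2 in PROLIF and 37.7, 16.9 and 40.1 in DIFF, a score difference of -2.63 ± 0.20 (SE, limma adjusted p = 0.00191). All 3 PROLIF libraries placed it among the stronger peaks and all 3 DIFF libraries in the lower part of the list. An intron of *Kcnip1* (chr11:33866524-33867293) had 91.3, 91.6 and 91.2 against 60.8, 46.9 and 60.5, and a distal region of *Kcnk13* (chr12:100073081-100073718) had 89.7, 90.6 and 90.3 against 44.5, 41.1 and 34.6. An intron of *Kcnq5* (chr1:21616426-21617123) had 90.2, 93.0 and 90.8 against 33.7, 55.7 and 58.1. In these regions too the PROLIF values were close together and far from DIFF. Strong intronic regions of *Kcnd3* (98.4 to 99.1 against 88.5 to 89.5) and *Kcnh7* (98.2 to 99.3 against 89.7 to 91.5) fell by less in rank but stayed among the stronger peaks, and the *Kcnd3* call was lost under fold ranks (score difference -0.68, limma adjusted p = 0.0512). A region in the *Kcnj9* window that belongs to the promoter of its neighbour *Igsf8* had 63.9, 50.2 and 65.8 against 4.78, 4.20 and 21.8, and an intron of *Kcnq1* had 74.2 to 82.8 against 52.7 to 63.8. *Kcnip1*, *Kcnd3* and *Kcnq5* held 3 falling intronic regions each, and *Kcnk13* held 1 intronic and 2 distal ones.

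Own promoters that fell were those of *Kcnj16* (score difference -0.86 ± 0.16, SE, limma adjusted p = 0.0142), *Kcna1* (-0.86 ± 0.16, limma adjusted p = 0.0156), *Kcnmb1* (-1.08 ± 0.22, limma adjusted p = 0.0184), *Kcnab2* (-0.93 ± 0.16, limma adjusted p = 0.0111), *Kcnh8* and *Kcnn4*. The *Kcnn4* region had its summit 3404 bp from a start site, at 82.0 to 92.9 in PROLIF and 73.8 to 78.6 in DIFF, but the peaks within 3 kb overlapped between the states, at 45.7 to 92.9 and 52.7 to 78.6. In *Kcnab2* the falling region was 1 of several near its start sites, at 89.6 to 92.7 against 68.9 to 79.8, while its strongest promoter peak overlapped between the states as given above.

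The 22 regions that rose in DIFF were spread over 18 genes. A distal region of *Kcna10* (chr3:107175549-107176054) had 30.2, 22.7 and 8.78 in PROLIF and 63.6, 54.7 and 62.7 in DIFF (score difference 1.34 ± 0.17, SE, limma adjusted p = 0.00413), although a distal region next to it (chr3:107176592-107176981) fell. A distal region of *Kcnk5* (chr14:20193013-20193638) had 35.3, 46.8 and 31.0 against 74.5, 75.6 and 82.6, and one in the *Kcnj11* window, within *Nomo1* (chr7:46077694-46078051), had 27.5, 8.74 and 25.9 against 65.0, 62.7 and 71.5. All of these rose from the lower to the upper part of the list in each DIFF library. Introns of *Kcnip1* (53.6, 37.5 and 43.4 against 75.4, 77.5 and 76.9), *Kcnip4* (46.8 to 71.4 against 87.3 to 90.1) and *Kcnd2* (43.4 to 61.9 against 71.8 to 74.1) rose too. The *Kcnd2* call was lost without PROLIF 2, PROLIF 4, DIFF 1 or DIFF 2 (limma adjusted p from 0.0518 to 0.0652). *Kcnip1* held intronic regions that moved in opposite directions. *Kcnn2* had an intron at 49.5, 29.7 and 3.68 against 64.1, 70.8 and 84.8, the widest spread among PROLIF libraries in this set.

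*Kcnh2*, whose product is the ERG channel of the heart and of some progenitors, rose at its promoter (66.4, 49.4 and 41.4 against 79.6, 75.6 and 81.3, score difference 0.89 ± 0.15, SE, limma adjusted p = 0.0114) and at a distal region 6048 bp from a start site (57.4, 33.8 and 17.3 against 64.8, 68.3 and 77.0, limma adjusted p = 0.0186). The promoter call was lost when peaks were ranked by fold (score difference 0.63, limma adjusted p = 0.0620). Another *Kcnh2* promoter region (chr5:24351347-24352298) was stronger in all 6 libraries, did not pass (limma adjusted p = 0.191) and overlapped between the states (48.5 to 81.5 in PROLIF and 80.8 to 86.8 in DIFF). *Kcnk3* also rose at both its promoter (0.61 ± 0.14, SE, limma adjusted p = 0.0283) and an intron, and *Kcna2* at an exon and a distal region, the latter not without DIFF 1 or DIFF 4 (limma adjusted p = 0.0522 and 0.0612). The remaining promoters that rose were those of *Kcna5* and *Kcnj10*. In *Kcnj10* this was a second region near the start (chr1:172342563-172343223), at 80.8, 80.8 and 78.4 against 87.8, 91.6 and 93.8 (0.56 ± 0.15, SE, limma adjusted p = 0.0449), while the strongest promoter peak stayed as given above. Regions in the windows of *Kcng4*, *Kcnk6* and *Kcnk4* that rose lay at promoters of the neighbours *Taf1c*, *Yif1b*, and *Prdx5* and *Trmt112*.

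**Figure D4:**
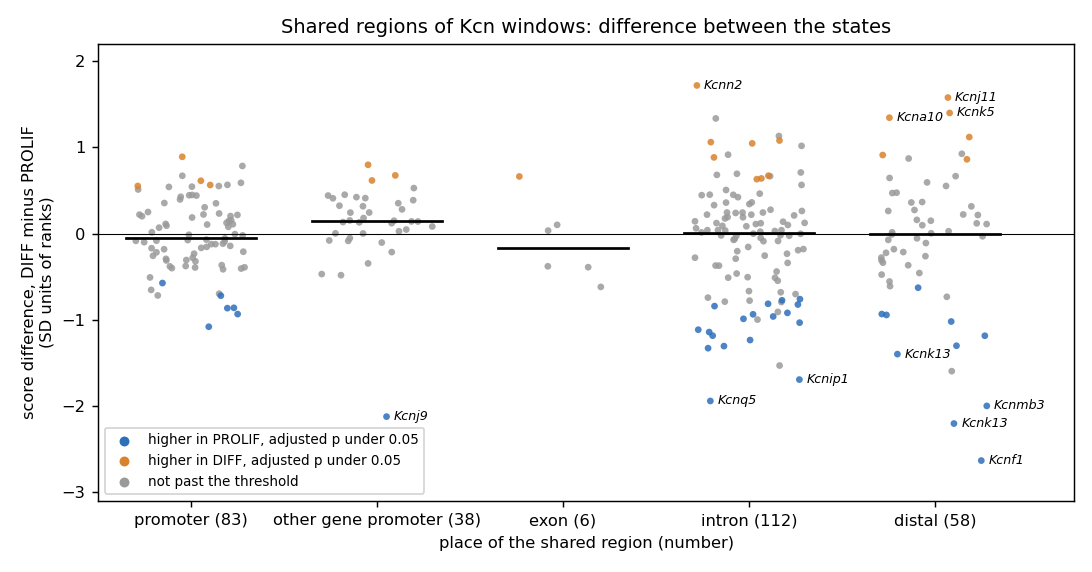
Score difference between the states (DIFF minus PROLIF, SD units of ranks) of the 297 constant regions in Kcn windows by place; blue points passed limma as higher in PROLIF, orange points as higher in DIFF, grey points did not pass, and black lines are medians. Intronic and distal regions spread wider than own promoters, down to -2.63 at Kcnf1.

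**Figure D5:**
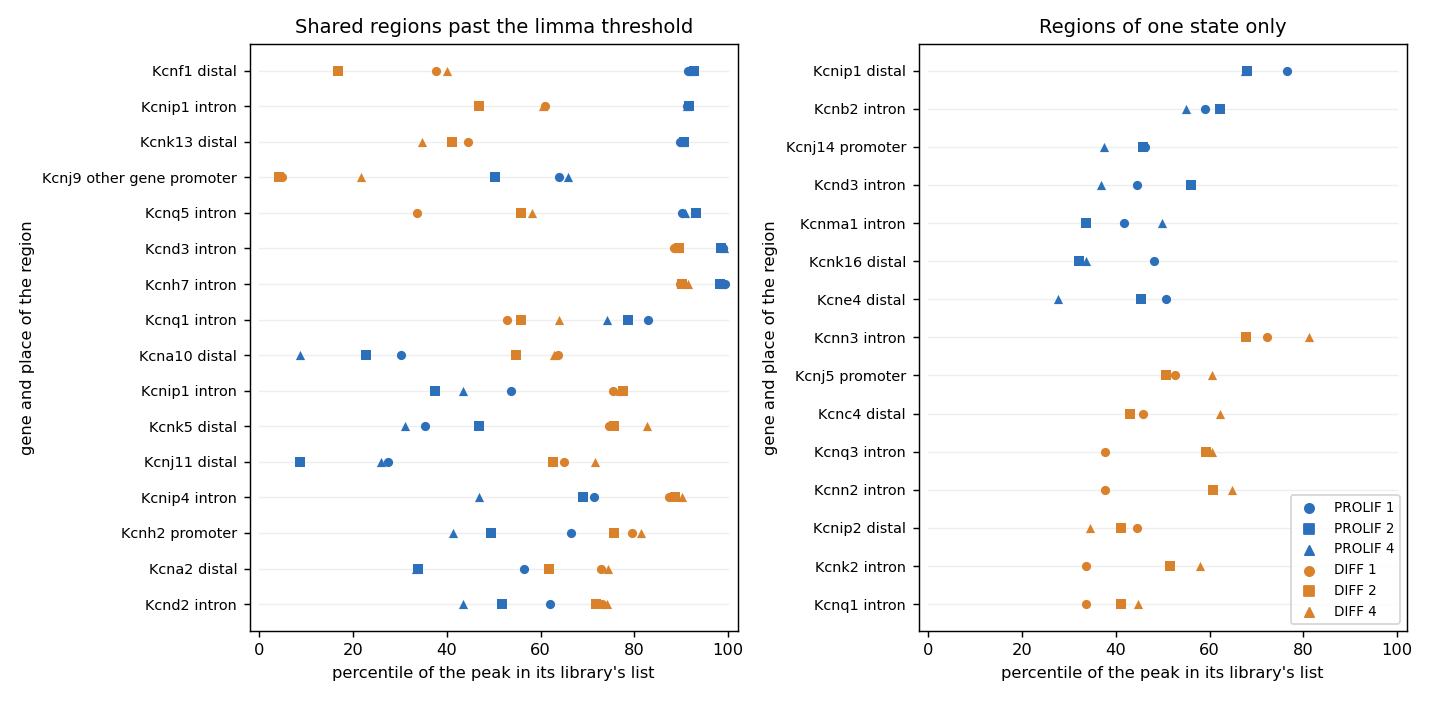
Percentile of the peak in each library (blue PROLIF, orange DIFF; circle, square and triangle are replicates 1, 2 and 4) at constant regions that passed limma, 8 genes in each direction (left), and at regions of one state only (right), where the other state has no point. The regions on the left were selected by limma on these same ranks, and in each of them the states do not overlap.

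Motifs near the summits were counted as a description. The AP-1 motif TGACTCA (both strands, within 100 bp of the summit) was in 6 of the 19 PROLIF-only regions (31.6%) and 5 of the 35 PROLIF-higher regions (14.3%), but in 0 of 29 DIFF-only and 0 of 22 DIFF-higher regions. It was in 5.78% of the 951 regions and in 5.78% of all regions, and in 27.9% and 2.46% of all PROLIF-only and DIFF-only regions and 16.6% and 1.93% of all PROLIF-higher and DIFF-higher regions. AP-1 is the dimer of FOS and JUN proteins induced by growth factors. The regions below hold a match, in capitals with 25 bases on either side: the leading PROLIF-only region of *Kcnip1*, both PROLIF-only introns of *Kcnma1*, and the regions of *Kcnf1*, *Kcnq5* and *Kcnh7* that fell.
Kcnip1 distal, chr11:34010948-34011004, plus strand: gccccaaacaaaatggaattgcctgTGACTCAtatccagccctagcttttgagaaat
Kcnma1 intron, chr14:23885708-23885764, plus strand: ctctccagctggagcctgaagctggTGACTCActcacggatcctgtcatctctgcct
Kcnma1 intron, chr14:23911289-23911345, plus strand: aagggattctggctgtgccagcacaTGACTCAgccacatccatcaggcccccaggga
Kcnf1 distal, chr12:17184396-17184452, plus strand: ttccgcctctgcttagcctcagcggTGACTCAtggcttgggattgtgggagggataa
Kcnq5 intron, chr1:21616797-21616853, plus strand: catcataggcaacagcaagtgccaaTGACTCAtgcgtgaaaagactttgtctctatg
Kcnh7 intron, chr2:62807497-62807553, minus strand: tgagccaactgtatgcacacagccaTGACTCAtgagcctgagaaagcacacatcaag

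The short NFI motif TTGGCA (both strands, same distance), bound by nuclear factor I proteins of glial and stem cells, was in 7 of the 29 DIFF-only regions (24.1%) and 8 of the 22 DIFF-higher regions (36.4%), and in 2 of 19 PROLIF-only (10.5%) and 9 of 35 PROLIF-higher regions (25.7%). The share was 16.6% over the 951 regions and 18.4% over all regions. Over chromosomes 1 to 19 the motif was in 32.9% of DIFF-only, 29.0% of DIFF-higher, 19.3% of PROLIF-only and 21.1% of PROLIF-higher regions. With so few regions the *Kcn* shares rest on single matches. Matches in regions that rose or appeared in DIFF are shown in the same way.
Kcnj11 window, distal, chr7:46077850-46077905, plus strand: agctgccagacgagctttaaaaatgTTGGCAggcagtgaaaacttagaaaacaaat
Kcnip1 intron, chr11:33786717-33786772, plus strand: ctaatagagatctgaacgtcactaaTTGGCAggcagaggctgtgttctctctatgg
Kcnip4 intron, chr5:49292627-49292682, minus strand: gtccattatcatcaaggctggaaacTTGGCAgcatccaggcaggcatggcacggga
Kcnk2 intron, chr1:189272761-189272816, plus strand: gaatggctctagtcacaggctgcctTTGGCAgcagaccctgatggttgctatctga
Kcnq3 intron, chr15:66080844-66080899, minus strand: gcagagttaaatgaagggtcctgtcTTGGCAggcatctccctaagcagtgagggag

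REST, a repressor of neuronal genes in non-neuronal cells, is known to bind near many ion channel genes. Its elements CAGCACC and GGACAG in this order, with 2 bases between and at most 1 mismatch (both strands), occurred in 10 of the 951 regions (1.05%), beside 0.468% of all regions. In the constant regions these elements were in 2 of 297 (0.673%), beside 0.448% of all constant regions. Several of the 10 regions had a peak in few libraries: those of *Kcnab2*, *Kcnh1* and *Kcnip2* in 1, *Kcnh4* in 2 and *Kcnh7* in 3. Those of *Kcnj6* (4 libraries), *Kcnip1* (5), *Kcnn4* (5) and *Kcnh2* (6) had one in more. The region of *Kcnh2* had a peak in all 6 libraries, and its match lay in the distal region that rose in DIFF. Matches with no mismatch in the distal regions of *Kcnh2* and *Kcnn4* (5 libraries) read as follows, both elements in capitals.
Kcnh2 distal, chr5:24357588-24357652, minus strand: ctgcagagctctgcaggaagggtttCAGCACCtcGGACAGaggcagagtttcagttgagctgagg
Kcnn4 distal, chr7:24359417-24359481, plus strand: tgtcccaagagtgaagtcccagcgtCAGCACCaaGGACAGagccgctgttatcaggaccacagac
E-boxes and SOX motifs were read too. The E-box CAGATG was in 13 of 35 PROLIF-higher (37.1%) and 6 of 22 DIFF-higher regions (27.3%), and the SOX motifs ACAAAG or ACAATG in 19 (54.3%) and 4 (18.2%). Over all constant regions that passed, CAGATG was in 867 of 3394 and 297 of 2481, and SOX in 38.9% and 29.0%. The E-box CAGCTG stood at 37.1% and 18.2% in these *Kcn* regions beside 38.9% and 17.3%. In PROLIF-only and DIFF-only *Kcn* regions CAGCTG was in 3 of 19 (15.8%) and 4 of 29 (13.8%), beside 33.8% and 15.4% of all such regions. CAGATG was in 5 of 19 (26.3%) and 0 of 29, beside 28.3% and 12.4%. SOX was in 42.1% and 31.0%, beside 37.8% and 30.1%. A match is a description of the sequence and not of binding.

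Other genes that move potassium or assist its channels were counted in the same way. Of 25, 23 had a promoter peak in all 6 libraries, *Lrrc26* had one in 5 and *Slc12a1*, a kidney cotransporter, in none. Of their 33 constant promoter regions, 5 rose in DIFF and 2 fell by limma at an adjusted p under 0.05, where 4.21% and 3.74% of all constant promoter regions did so. Regions that rose included those of *Hcn4*, *Slc12a5* (KCC2) and *Dpp6*, and one that fell was that of *Slc12a7*. In *Dpp6* only 1 of 4 constant promoter regions rose. Its strongest promoter peak overlapped between the states, at 83.7, 74.8 and 79.5 in PROLIF and 84.8, 83.4 and 83.5 in DIFF. *Hcn4*, a pacemaker channel, had 35.3, 52.6 and 33.4 in PROLIF and 74.9, 76.5 and 75.0 in DIFF. *Slc12a7* had 80.1, 82.1 and 81.1 against 54.0, 61.3 and 72.7. In both genes no library of one state reached the other.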

How the data were processed

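The 6 libraries were grouped by state and replicate number from the labels (2 or 2 + 1 days in vitro; the series text gives 3 days for proliferating cells). The authors clipped and trimmed reads with Cutadapt and Trimmomatic, used Bowtie2 for alignment to GRCm38 and Picard to mark duplicates, and ran MACS2 on each library for narrow peaks at a false discovery rate of 0.05. Versions, read extension, transposase shift and blacklist are not given in the sources used here. Each affects peak edges. The score deposited by the authors is the whole part of 10 times −log10 q. The deposited fold enrichment is signal at the summit as a ratio to its own library's local background, and the deposited −log10 p and q use that background.

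Peaks were ranked within each list by −log10 p. Background pileup was solved from fold and p. Peaks that overlapped by 1 bp were merged. Ranks of regions in all 6 lists became normal scores for limma 3.58.1, with Benjamini-Hochberg adjustment over 39088 regions. Other comparisons were two-sided exact permutation tests. Peak lists hold no read totals, so the depth is given only as background pileup. Genes came from GENCODE M21. Named genes were those with the strongest state-only regions, the most constant regions outside promoters, the strongest promoters, the lowest limma adjusted p (8 each), a state-only promoter, and a fixed list. Scripts were tested on simulated data. Some genes enter the counts but are not reported here by name or drawn by name. The members, lists and tests were chosen with earlier results of these data known. Alternatives were q of 0.01, equal lists, the strongest 20000 peaks, other promoter and window sizes, a cover of 50%, chromosomes 1, 10 and 12 (uneven peak numbers in earlier results) left out, fold ranks, a variance trend, each library left out and a replicate block. Tools were samtools 1.23.1, pysam 0.24.0, scipy 1.17.1, pandas 2.3.3, numpy 2.4.6 and Python 3.11.15.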

Additional observations from a re-analysis of the deposited data

Results flagged for a closer look

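Outside the comparisons, which used chromosomes 1 to 19, 2 X-linked genes of the same symbol set had promoter peaks. *Kcnd1*, a Kv4 pore gene, had one in 3 libraries of 6, and *Kcne1l* in 6 of 6. They were singled out because they are signals in data that no comparison used, and the states were not compared there.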

How the results depend on the processing

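The strongest 20000 peaks of each list turned several small differences around (DIFF minus PROLIF): the share of peaks in *Kcn* windows to -0.0333 percentage points (exact permutation p = 0.3), the intronic share to -0.231 (p = 0.9, exact), the distal share to -3.11 (p = 0.1, exact) and the median promoter percentile to -7.07 (p = 0.2, exact). They left 14 PROLIF-only and 7 DIFF-only regions, the reverse of the order of the whole lists. The shares over all regions were not counted for this setting or for the others in this section, the replicate block included. Whether these counts and their order are particular to *Kcn* windows is therefore not known. Lists of equal length moved the distal share to -0.0272, and windows with 50 kb on each side moved the share of peaks to -0.00396. Gene bodies alone left 11 PROLIF-only and 15 DIFF-only regions, and 23 PROLIF-higher and 13 DIFF-higher ones, since they hold fewer regions. Without chromosomes 1, 10 and 12 there were 13 PROLIF-only, 25 DIFF-only, 26 PROLIF-higher and 22 DIFF-higher regions. The leading falling regions of *Kcnf1*, *Kcnk13*, *Kcnq5* and the *Kcnj9* window lie on chromosomes 1 and 12 and were left out there. For the other changes the cause was not tested. Leaving out each library gave differences of 0.362 to 5.98 percentage points in promoter genes, -0.00714 to 0.0172 in the share of peaks, -0.915 to 1.97 in the intronic share, 0.181 to 0.661 in the distal share and -1.37 to 2.71 in the median percentile. It gave 19 to 34 PROLIF-only, 31 to 56 DIFF-only, 26 to 33 PROLIF-higher and 7 to 17 DIFF-higher regions. The state-only counts could only stay or rise there, since a library left out removes a condition. The share of peaks turned without PROLIF 4 or DIFF 1, and the intronic share and median percentile without PROLIF 4. Same-numbered libraries correlated in their deviations at 0.0551, 0.152 and 0.0122 and different numbers at -0.112 to 0.0611. These correlations did not show that the numbers pair the libraries. The high *Kcnmb4* values given above were nevertheless shared by the replicate 1 libraries of both states. A replicate block asks for at least 2 of 3 pairs to differ and none the other way. It gave 55 PROLIF-only and 103 DIFF-only regions. By limma it gave 38 and 18 shared regions, and 46 of the 57 regions called in the main fit kept a call. None of the per-library differences passed under the block, where 3 pairs cannot give a sign-flip p under 0.25. Among 156 refits of the 16 regions that passed limma and lead each direction, 148 kept their call and 8 lost it, and none changed sign. The 8 concern *Kcnd3* and the *Kcnh2* promoter under fold ranks and *Kcna2* and *Kcnd2* with a library left out. The 16 regions were picked for their low adjusted p. Of all 57 regions called in the main fit, 31 to 42 kept a call with a library left out, and 42 under fold ranks. A peak list shows only signals above its threshold, and the part of depth in regions found in some libraries was not tested. The background was highest in DIFF 4, but list length did not follow it across libraries.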
